A study of Sus scrofa with 12 samples.

Results

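The genes described here encode growth factors of the EGF, FGF, IGF, PDGF, VEGF and HGF families and the ephrins, together with their receptors and binding proteins, in pig oviduct epithelial cells. They are the gene rows of the deposited table whose symbol matched a fixed naming pattern for these families: 80 of 30461 gene rows, of which 13259 carried a symbol. The pattern used names and no measured value, but it was chosen with earlier results of these data known. It also took in FGFR1OP2, which is named after FGFR1 and is not a receptor. Another 17 family symbols that were looked for, among them ERBB4, NRG1, IGF2R, IGFBP3, PDGFRB and EPHA4, were not analysed here.

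The study sequenced the 3′ ends of mRNA in 12 libraries, with 4 libraries in each of 3 groups. Fresh cells were epithelial cells scraped from the pig oviduct and taken as single cells. The other groups were spheroids, which are rounded 3-dimensional clusters of cells, formed from such cells either in DMEM/F12, a common basal culture medium, or in what the labels call Incubation Medium. The sources used here give no composition for either medium, no culture time, no animal age and no number of animals, and the library names carry an unexplained FBS (DMEM/F12) or Diff (Incubation Medium). Nothing says that replicates came from separate animals or cultures, so p-values measure only the spread between these samples.

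Growth factors of these families are secreted or membrane-bound proteins that bind receptor tyrosine kinases on the cell surface. Bound receptors pair, phosphorylate each other and pass the signal through adaptors to the ERK cascade and to PI3K and AKT, which act on proliferation, survival and movement, and feedback inhibitors then damp the signal. Binding proteins such as the IGFBPs hold ligands outside the cell, neuropilins serve VEGF receptors as co-receptors, and ephrins sit on a neighbouring cell and act through contact. In the oviduct, epithelial growth factors are known as part of the exchange between the lining cells, the gametes and the early embryo.

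Total counts ran from 5045218 to 8603809 per library. Levels are given as CPM, a gene's count relative to the size of its library with library sizes scaled by TMM, in the order of replicates 1 to 4. They compare 1 gene between libraries and not 1 gene with another. Of 10 epithelial markers 7 had a row, and their summed level was 4150.3 to 4844 CPM in fresh cells, 6928 to 8575 in DMEM/F12 spheroids and 5219 to 7486 in incubation medium spheroids. EPCAM and CDH1 had means of 902, 627 and 713 and of 398, 1209 and 605 CPM in the same order. The 7 multiciliated markers with a row were all lower in both kinds of spheroid, with sums of 1117 to 1304, 128 to 326 and 131 to 232 CPM. Among secretory markers OVGP1 and SLPI fell and MUC1 rose in both media, and their sum was 18898 to 29916 CPM in fresh cells, 982 to 2011 in DMEM/F12 and 961 to 2006 in incubation medium. All 6 proliferation markers with a row rose in both media, from sums of 32.8 to 46.9 CPM to 272 to 313 and 301 to 457. The part of these shifts in the results below was not tested, and in bulk RNA fewer cells of a type and less RNA per cell cannot be told apart.

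The 80 genes held 0.231 to 0.404% of the counts of a library, and 56 of them passed the filter on low counts and were tested. Of the 24 that did not pass, 7 were at 0 in every library (FGF3, FGF4, FGF10, FGF16, FGF17, FGF20 and IGFBP1). A count of 0 allows up to 3 counts, which is 0.348 to 0.587 CPM depending on the library. In all, 15 of the 80 never rose above that floor. The other untested genes reached at most 2.86 CPM in any library, and they included EGF itself, NRG2, FGF7, IGF1, IGF2, VEGFC, VEGFD and FLT1.

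Comparing DMEM/F12 spheroids with fresh cells takes spheroid formation, time in culture and medium together, and these cannot be told apart. Here 43 of the 56 tested genes differed at an adjusted p under 0.05, beside 70.7% of all 14070 genes tested. Of these genes 18 were higher and 25 lower, beside 35.1% and 35.7% of all genes, and 29 differed at least 2-fold, beside 35.4%. For 42 of the 56 the libraries of the 2 groups were fully separate, beside 65.4% of all genes. The median log2 fold change was -0.197 over these genes and -0.0143 over all genes, and the median size regardless of sign was 1.1 against 0.688.

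In the same comparison for incubation medium, 39 of the 56 differed, beside 71.7% of all genes. The direction was up for 14 and down for 25, beside 35.8% of all genes each way, and 28 differed at least 2-fold, beside 36.9%. Libraries did not overlap for 35 of the 56, beside 64.9%. Their median log2 fold change was -0.195, against -0.0069 over all genes, and the median size 1.07 against 0.719.

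The 2 kinds of spheroid differed from each other in 27 of the 56 genes, beside 25% of all genes tested. Of these 9 were higher and 18 lower in incubation medium, beside 12.7% and 12.3% of all genes. At least 2-fold differences were called for 15, beside 5.44%: 6 higher, beside 2.06%, and 9 lower, beside 3.38%. The libraries did not overlap for 31, beside 26.9%. The median log2 fold change was -0.245 over these genes and -0.00334 over all genes, and the median size 0.43 against 0.252. The count at 2-fold or more rested partly on incubation medium replicate 4, and leaving it out took 15 to 11. IGFBP2, IGFBP5 and VEGFA, which were among the 6 higher, each had that replicate apart from the rest of its group. Without it IGFBP2 stood at 1.01 on the log2 scale, and VEGFA was not called (0.73, adjusted p = 0.0627). With library totals in place of TMM scaling, the calls over all genes moved from 1791 higher and 1729 lower to 1240 and 2469. The share of calls that were higher went from 50.9% to 33.4% over all genes. Over these genes that share went from 33.3% to 29.6%, so the 2 shares lay closer under library totals. With the replicate number as a block, 2329 of all genes were called higher and 2281 lower, while these genes stayed at 9 and 18. The 3 comparisons share their groups pairwise, so their values are set side by side below and are not independent of each other.

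By role, 24 ligands were tested, of which 7 rose and 14 fell in DMEM/F12 and 6 rose and 12 fell in incubation medium. Over all genes 35.1% rose and 35.7% fell in DMEM/F12, and 35.8% moved each way in incubation medium. Among 21 receptors and co-receptors 9 rose and 6 fell in DMEM/F12, while 6 rose and 9 fell in incubation medium. Binding proteins made up 6 of the tested genes, and 3 of these, FGFBP1, IGFBP2 and IGFBP5, were higher in incubation medium than in DMEM/F12, with none called lower, beside 12.7% and 12.3% of all genes.

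**Figure D1:**
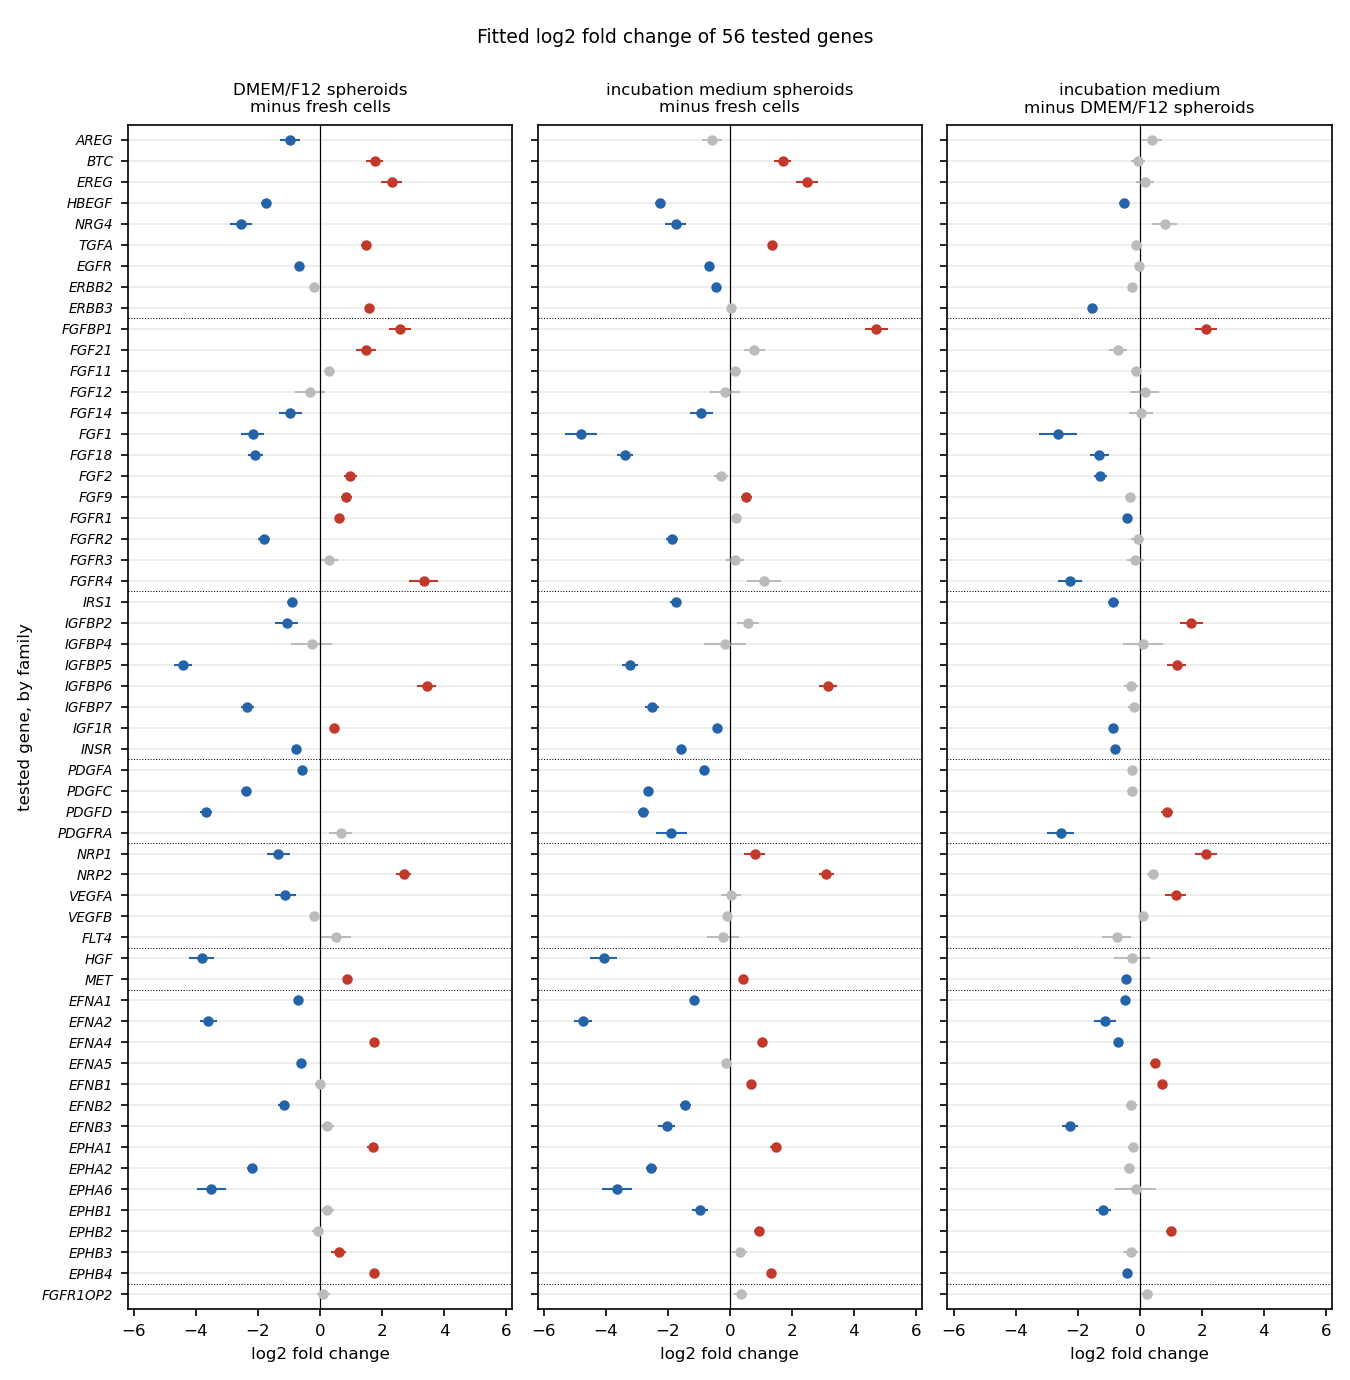
Fitted log2 fold change (x axis) of each of the 56 tested genes (y axis, grouped by family) in the 3 comparisons, with bars of 1 SE; red marks genes called higher, blue genes called lower and grey genes not called at an adjusted p of 0.05. FGFBP1 lies at 2.59, 4.73 and 2.14 and is the only gene in red in all 3 panels, while NRP1 is blue at -1.35 in the first panel and red at 0.80 in the second. FGF1 and PDGFRA were at or under the floor in incubation medium, so their points against that group depend on the prior count. HGF and EPHA6 had at most 9 counts in any spheroid library, so the size of their falls is uncertain.

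In the EGF family some ligands were highest in fresh cells and others in spheroids. Of 8 ligands with a row 6 were tested: HBEGF, AREG and NRG4 fell and EREG, TGFA and BTC rose in DMEM/F12. HBEGF, a membrane-anchored EGFR ligand released by proteolysis, stood at 240.2, 180.0, 161 and 135 CPM in fresh cells, 52.2, 56.2, 60.3 and 46.5 in DMEM/F12 and 32.4, 44.4, 39.2 and 34.7 in incubation medium. No spheroid library reached the lowest fresh one, and the log2 fold change was -1.73 (SE 0.16, adjusted p = 2.41e-07) in DMEM/F12 and -2.25 (SE 0.16, adjusted p = 2.38e-08) in incubation medium. HBEGF was lower in incubation medium than in DMEM/F12, with a log2 fold change of -0.51 (SE 0.16, adjusted p = 0.0298). That call was lost when any 1 of DMEM/F12 replicates 2 and 3 or incubation medium replicates 1, 3 and 4 was left out, with adjusted p from 0.052 to 0.0831.

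EREG encodes epiregulin, a ligand of EGFR and ERBB4. It stood at 8.51, 7.16, 5.22 and 5.48 CPM in fresh cells, 29.9, 32.8, 47.1 and 21.9 in DMEM/F12 and 29.6, 48, 52.9 and 17.8 in incubation medium. All spheroid libraries exceeded all fresh ones, by a log2 fold change of 2.31 (SE 0.35, adjusted p = 3.5e-05) and of 2.48 (SE 0.35, adjusted p = 1.67e-05), while the spheroid groups overlapped (log2 fold change 0.17, SE 0.29, adjusted p = 0.703). TGFA, another EGFR ligand, went from 6.77, 7.34, 5.78 and 5.67 CPM in fresh cells to 16.3, 18.7, 19.8 and 17 in DMEM/F12 and 16.7, 16.8, 19.4 and 13.1 in incubation medium. Its libraries separated in the same way, with log2 fold changes of 1.48 (SE 0.15, adjusted p = 6.31e-07) and 1.36 (SE 0.15, adjusted p = 1.49e-06). BTC, betacellulin, was low throughout, at 1.04, 1.07, 2.24 and 1.17 CPM in fresh cells, 4.13, 3.94, 5.68 and 5.15 in DMEM/F12 and 5.0, 3.46, 5.28 and 4.29 in incubation medium. It rose by 1.76 (SE 0.28, adjusted p = 5e-05) in DMEM/F12 and by 1.70 (SE 0.28, adjusted p = 7.18e-05) in incubation medium on the log2 scale.

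NRG4, a neuregulin that acts through ERBB4, was at 6.25, 6.44, 7.84 and 5.48 CPM in fresh cells, 1.94, 1.16, 0.528 and 0.719 in DMEM/F12 and 3.21, 1.47, 1.6 and 1.34 in incubation medium. Fresh libraries were all above spheroid libraries, with log2 fold changes of -2.55 (SE 0.36, adjusted p = 1.76e-05) and -1.75 (SE 0.33, adjusted p = 0.000284). Incubation medium against DMEM/F12 gave 0.80 (SE 0.39, adjusted p = 0.152), and without DMEM/F12 replicate 1 this became 1.23 (adjusted p = 0.0418, over all alternatives 0.0418 to 0.477). AREG, amphiregulin, varied widely among fresh libraries, at 38.9, 26.7, 14.6 and 13.3 CPM, and stood at 16.1, 11.2, 10.8 and 9.35 in DMEM/F12 and 14.8, 19.5, 19.3 and 8.98 in incubation medium. The groups overlapped. Its log2 fold change in DMEM/F12 was -0.98 (SE 0.33, adjusted p = 0.0148), a call lost without fresh replicate 1 (-0.61, adjusted p = 0.0824, over all alternatives 0.00154 to 0.0824). In incubation medium it was -0.58 (SE 0.32, adjusted p = 0.114), and with the replicate number as a block -0.53 (adjusted p = 0.0364). Leaving out fresh replicate 4 gave -0.77 (adjusted p = 0.0406, over all alternatives 0.0364 to 0.527).

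The 3 receptors of the family with a row took 3 different courses. EGFR, which binds HBEGF, AREG, TGFA, BTC and EREG, stood at 191, 219, 249 and 288 CPM in fresh cells, 123, 133, 173 and 165 in DMEM/F12 and 161, 135, 136 and 159 in incubation medium. Every spheroid library was below every fresh one, with log2 fold changes of -0.67 (SE 0.14, adjusted p = 0.000503) and -0.68 (SE 0.14, adjusted p = 0.000449), and the 2 media overlapped (log2 fold change -0.01, SE 0.14, adjusted p = 0.976). ERBB3, the receptor with little kinase activity of its own that signals by pairing with ERBB2, was at 80.8, 77.5, 89.6 and 81 CPM in fresh cells, 242, 229.8, 259 and 246 in DMEM/F12 and 93.8, 82.7, 80.1 and 83.3 in incubation medium. DMEM/F12 spheroids alone stood high: the log2 fold change was 1.57 (SE 0.08, adjusted p = 9.7e-10) against fresh cells, and incubation medium against DMEM/F12 gave -1.52 (SE 0.08, adjusted p = 7.4e-08). Incubation medium and fresh libraries overlapped, with a difference of 0.05 (SE 0.08, adjusted p = 0.596). ERBB2, the pairing partner without a ligand of its own, was at 93.1, 135, 129 and 146 CPM in fresh cells, 109.6, 106, 116 and 108 in DMEM/F12 and 97.5, 87.5, 81.8 and 103 in incubation medium. It fell in incubation medium although the libraries overlapped, with a log2 fold change of -0.44 (SE 0.12, adjusted p = 0.00426). The difference in DMEM/F12 was -0.19 (SE 0.12, adjusted p = 0.164), and without fresh replicate 1, the lowest fresh library, -0.31 (adjusted p = 0.00821, over all alternatives 0.00821 to 0.5). Counts of ERBB2 were not whole in 10 of the 12 libraries, which means that some of its reads had been shared with another feature.

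**Figure D2:**
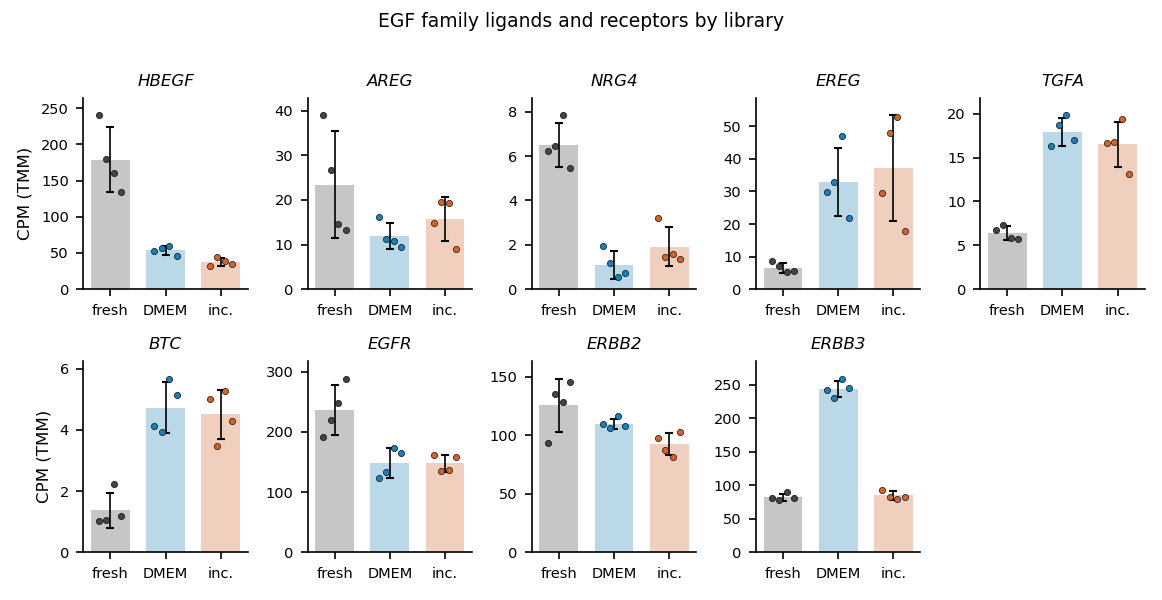
CPM after TMM scaling (y axis, linear from 0) of the 9 tested EGF family genes in fresh cells, DMEM/F12 spheroids (DMEM) and incubation medium spheroids (inc.); points are the 4 libraries, bars the group means and error bars the SD. HBEGF is high in fresh cells only, EREG, TGFA and BTC are low there, and ERBB3 stands at 229.8 to 259 CPM in DMEM/F12 with no library of the other groups above 93.8.

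The FGF family had 26 genes with a matching symbol, and 13 were tested. FGFBP1 had its highest levels in incubation medium, and the ligands FGF1 and FGF18 their lowest. FGFBP1 encodes a secreted protein that frees FGFs from the matrix and carries them. It stood at 146, 35.1, 64 and 90 CPM in fresh cells, 721, 334, 394 and 567 in DMEM/F12 and 2573, 1601, 2473 and 2223 in incubation medium. The 3 groups did not overlap and formed a clear order, with log2 fold changes of 2.59 (SE 0.35, adjusted p = 1.37e-05) in DMEM/F12, 4.73 (SE 0.39, adjusted p = 8e-08) in incubation medium and 2.14 (SE 0.34, adjusted p = 0.000473) between the media. FGFBP1 made up 1.31 to 5.21% of the counts of the 80 genes in fresh cells, 15.4 to 28.5% in DMEM/F12 and 50.2 to 62.2% in incubation medium. Without it, the other genes held 0.253 to 0.274% of the counts in fresh libraries, 0.192 to 0.196% in DMEM/F12 and 0.152 to 0.183% in incubation medium.

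Of 17 FGF ligands only 5 were tested, and they did not move together. FGF18, a ligand known for its roles in lung and cartilage, was at 10.6, 8.77, 9.14 and 11.9 CPM in fresh cells, 1.82, 3.25, 2.24 and 2.16 in DMEM/F12 and 0.595, 1.2, 1.35 and 0.67 in incubation medium. The groups did not overlap, and the log2 fold changes were -2.08 (SE 0.24, adjusted p = 2.39e-06), -3.38 (SE 0.27, adjusted p = 6.78e-08) and, between the media, -1.30 (SE 0.30, adjusted p = 0.00564). With all libraries thinned to 1 depth the difference between media was -0.78 (adjusted p = 0.142, over all alternatives 0.00281 to 0.142). FGF1, acidic FGF, which binds all FGF receptors, was at 3.47, 4.83, 3.17 and 4.69 CPM in fresh cells and 0.85, 1.04, 0.66 and 0.959 in DMEM/F12, a log2 fold change of -2.17 (SE 0.37, adjusted p = 0.000103). None of the 4 incubation medium libraries had more than 3 counts, the floor. Set at that floor, taken per library, the incubation medium level of FGF1 was 10.6-fold below fresh cells and 2.3-fold below DMEM/F12. The counts there were 0, 1, 0 and 3, so these values are not strict limits. FGF2, basic FGF, went the other way in DMEM/F12, with 14.9, 16.1, 11.2 and 16 CPM in fresh cells, 20.2, 31, 39.6 and 24.4 in DMEM/F12 and 8.69, 13.6, 14.5 and 11 in incubation medium. DMEM/F12 libraries were the highest, by 0.98 (SE 0.21, adjusted p = 0.000825) against fresh cells, and incubation medium against DMEM/F12 gave -1.27 (SE 0.21, adjusted p = 0.000596). Incubation medium and fresh cells overlapped (log2 fold change -0.29, SE 0.22, adjusted p = 0.258). FGF2 counts were not whole in 8 of 12 libraries, so overlapping or antisense reads cannot be told apart from its own.

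FGF9, a ligand exchanged between epithelium and mesenchyme in many organs, was at 2.43, 3.22, 2.61 and 2.74 CPM in fresh cells, 5.1, 4.41, 4.89 and 5.51 in DMEM/F12 and 3.93, 3.73, 4.3 and 4.02 in incubation medium. It rose by 0.85 (SE 0.18, adjusted p = 0.000623) in DMEM/F12 and by 0.54 (SE 0.18, adjusted p = 0.0223) in incubation medium, and the latter call was lost without fresh replicate 1 (0.48, adjusted p = 0.0626) and in DESeq2 (0.54, adjusted p = 0.0743, over all alternatives 0.0112 to 0.0743). FGF21, a hormone-like FGF, was at 1.22, 0.537, 1.87 and 0.587 CPM in fresh cells, 2.43, 3.13, 3.17 and 3.24 in DMEM/F12 and 2.14, 1.47, 1.97 and 1.74 in incubation medium. The log2 fold change was 1.49 (SE 0.33, adjusted p = 0.000975) in DMEM/F12 and 0.79 (SE 0.35, adjusted p = 0.0544) in incubation medium, where it passed the threshold without fresh replicate 3 (1.21, adjusted p = 0.0078) or without incubation medium replicate 2 (0.90, adjusted p = 0.0464). It also passed with thinned counts (1.00, adjusted p = 0.0406), in limma (0.65, adjusted p = 0.035) and with only whole counts (0.87, adjusted p = 0.0414), and over all alternatives its adjusted p was 0.0078 to 0.162. FGF11, FGF12 and FGF14 encode intracellular relatives that are not secreted. Of these, FGF14 was called in both media and FGF11 and FGF12 in neither, although FGF11 passed in DMEM/F12 when only the 2 groups compared were fitted (0.29, adjusted p = 0.0442). The log2 fold changes of FGF14 were -0.95 (SE 0.37, adjusted p = 0.0319) in DMEM/F12 and -0.92 (SE 0.37, adjusted p = 0.037) in incubation medium. Leaving out any 1 fresh library ended both calls. So did DMEM/F12 replicates 1 and 3 for the first and incubation medium replicates 1, 2 and 3 for the second, each left out alone, and no filter on low counts for both, or DESeq2 and only whole counts for the second, with adjusted p of 0.00465 to 0.0933 and 0.0137 to 0.112 over the alternatives.

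All 4 FGF receptors were tested. FGFR2, whose splice forms serve epithelium and mesenchyme, was at 28.5, 28.1, 30.6 and 39.5 CPM in fresh cells, 8.98, 5.8, 11.6 and 10.1 in DMEM/F12 and 8.45, 7.73, 10.3 and 8.05 in incubation medium. Both kinds of spheroid lay below the fresh range, with log2 fold changes of -1.80 (SE 0.19, adjusted p = 8.67e-07) and -1.87 (SE 0.19, adjusted p = 6.18e-07), and the media overlapped (log2 fold change -0.07, SE 0.20, adjusted p = 0.832). FGFR4, a receptor used by several endocrine FGFs, was at 1.22, 0.716, 0.933 and 1.37 CPM in fresh cells, 6.56, 9.39, 18 and 9.95 in DMEM/F12 and 1.31, 1.87, 4.67 and 1.21 in incubation medium. DMEM/F12 libraries were above all others, with log2 fold changes of 3.35 (SE 0.47, adjusted p = 1.74e-05) against fresh cells and, for incubation medium against DMEM/F12, -2.26 (SE 0.39, adjusted p = 0.000883). Without incubation medium replicate 3, the highest of its group, the last value was -2.89 (adjusted p = 0.000136, over all alternatives 3.93e-06 to 0.00425). Over the alternatives that value ran from -2.891 to -1.915. Incubation medium against fresh cells gave 1.10 (SE 0.54, adjusted p = 0.0825) and, with the replicate number as a block, 1.03 (adjusted p = 0.0225). It also passed the threshold without incubation medium replicate 1 (1.31, adjusted p = 0.0483) or replicate 4 (1.31, adjusted p = 0.046), and its adjusted p ranged over the alternatives from 0.0225 to 0.387.

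FGFR1, the receptor for FGF1 and FGF2 among others, was at 30.9, 42.6, 38.3 and 42.6 CPM in fresh cells, 58.5, 55.2, 56 and 68.3 in DMEM/F12 and 43.5, 41.6, 40.5 and 51.6 in incubation medium. It rose in DMEM/F12 by 0.63 (SE 0.12, adjusted p = 0.000251). Incubation medium overlapped fresh cells (log2 fold change 0.20, SE 0.12, adjusted p = 0.144) and was lower than DMEM/F12, with a log2 fold change of -0.43 (SE 0.11, adjusted p = 0.0138). That last call was lost without DMEM/F12 replicate 4 (-0.35, adjusted p = 0.0521, over all alternatives 0.00214 to 0.0521). FGFR3 did not pass the threshold in any comparison, with log2 fold changes of 0.30 (SE 0.29, adjusted p = 0.356) in DMEM/F12, 0.16 (SE 0.29, adjusted p = 0.627) in incubation medium and -0.14 (SE 0.27, adjusted p = 0.753) between the media. Counts were not whole in 5 of 12 libraries for FGFR1 and FGFR2, and likewise for EPHA2 below.

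In the IGF family neither ligand passed the filter, and the largest differences were in the binding proteins. IGF1 was at 0.868, 0.537, 0.373 and 0.587 CPM in fresh cells, 0.121, 0.232, 0 and 0.479 in DMEM/F12 and 2.86, 2.53, 0.983 and 1.48 in incubation medium. The 4 incubation medium libraries were the highest. With no filter on low counts, the log2 fold change of IGF1 was 1.76 against fresh cells (adjusted p = 0.00671) and 3.10 against DMEM/F12 (adjusted p = 0.000493). IGF2 was at 0.174, 0.716, 1.49 and 1.37 CPM in fresh cells and 0.728, 0.927, 0.132 and 0.719 in DMEM/F12, and all incubation medium libraries were at or under the floor. Among the other untested genes of all families, VEGFC, a ligand for lymphatic vessel growth, was called without the filter in incubation medium against fresh cells (1.48, adjusted p = 0.0475), and FGF5 was called in both media with no library above the floor.

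Of the 5 IGF binding proteins tested, IGFBP5 and IGFBP7 fell and IGFBP6 rose in both media. IGFBP5, a binding protein that attaches to matrix, was at 150.4, 179, 218 and 196 CPM in fresh cells, 10.3, 7.3, 8.98 and 8.39 in DMEM/F12 and 13, 17.1, 13.1 and 37 in incubation medium. Its spheroid libraries were all far below the fresh ones, with log2 fold changes of -4.41 (SE 0.29, adjusted p = 1.17e-08) and -3.22 (SE 0.27, adjusted p = 1.06e-07), and incubation medium lay above DMEM/F12 by 1.19 (SE 0.30, adjusted p = 0.00948). IGFBP7, a secreted protein with low affinity for IGFs, was at 98.1, 88.6, 144 and 86.1 CPM in fresh cells, 27.2, 18.2, 21.1 and 15.8 in DMEM/F12 and 22.9, 21.1, 15.2 and 13.8 in incubation medium. It fell, with log2 fold changes of -2.34 (SE 0.21, adjusted p = 1.93e-07) and -2.51 (SE 0.21, adjusted p = 1.06e-07), and the media overlapped.

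IGFBP6, which prefers IGF2, rose from 3.3, 3.76, 5.04 and 4.89 CPM in fresh cells to 64.9, 36.5, 33.8 and 48.1 in DMEM/F12 and 48.2, 24.8, 30.6 and 48.3 in incubation medium. No spheroid library was near the fresh range, and the log2 fold changes were 3.43 (SE 0.30, adjusted p = 1.51e-07) and 3.16 (SE 0.30, adjusted p = 3.56e-07). IGFBP2 was at 105, 84.3, 138 and 134 CPM in fresh cells, 60.7, 52.4, 35.4 and 69.6 in DMEM/F12 and 97, 132, 102 and 364 in incubation medium, where replicate 4 stood far above the others. It was lower in DMEM/F12 than in fresh cells, at -1.08 (SE 0.37, adjusted p = 0.018) on the log2 scale, a call lost without DMEM/F12 replicate 3 (-0.90, adjusted p = 0.0569, over all alternatives 0.000615 to 0.0569). Incubation medium exceeded DMEM/F12 by 1.67 (SE 0.37, adjusted p = 0.0047), and by 1.01 without incubation medium replicate 4 (adjusted p = 0.00375, over all alternatives 0.000464 to 0.0161). IGFBP4 was not called in any comparison. Counts of IGFBP2 and IGFBP5 were not whole in 6 of 12 libraries each.

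The IGF1 and insulin receptors and their adaptor differed between the media in the same direction. IGF1R was at 78, 108, 98 and 115 CPM in fresh cells, 139, 147, 128 and 132 in DMEM/F12 and 78, 70.9, 66 and 85.3 in incubation medium. It rose in DMEM/F12 by 0.45 (SE 0.11, adjusted p = 0.00271), fell in incubation medium with overlapping libraries (log2 fold change -0.41, SE 0.12, adjusted p = 0.0056), and was lower in incubation medium than in DMEM/F12 (log2 fold change -0.86, SE 0.11, adjusted p = 0.000118). INSR, the insulin receptor, was at 42.4, 46, 57.3 and 50.1 CPM in fresh cells, 30.3, 27.9, 31.3 and 25.3 in DMEM/F12 and 17.7, 16, 15.2 and 17.3 in incubation medium. The 3 groups did not overlap, and the log2 fold changes were -0.77 (SE 0.11, adjusted p = 1.54e-05), -1.56 (SE 0.11, adjusted p = 2.07e-08) and, between the media, -0.79 (SE 0.11, adjusted p = 0.00017). IRS1, the adaptor that both receptors phosphorylate, stepped down likewise from 49.9, 34.9, 28.6 and 33.8 CPM in fresh cells to 22.1, 16.8, 16.4 and 23.4 in DMEM/F12 and 12.5, 10.8, 8.6 and 11.8 in incubation medium. Its values were -0.90 (SE 0.18, adjusted p = 0.000343), -1.75 (SE 0.19, adjusted p = 1.04e-06) and -0.85 (SE 0.19, adjusted p = 0.00427).

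The 3 PDGF ligands all fell in both media. PDGFD was at 135, 181, 188 and 152 CPM in fresh cells, 13, 14.4, 9.64 and 14.3 in DMEM/F12 and 29.5, 23.6, 15.7 and 26.1 in incubation medium, with no overlap among the 3 groups. The log2 fold changes were -3.67 (SE 0.19, adjusted p = 1.03e-09), -2.79 (SE 0.18, adjusted p = 6.88e-09) and, between the media, 0.88 (SE 0.19, adjusted p = 0.00333). PDGFC, like PDGFD a ligand that is cleaved before it binds, was at 147, 168, 166 and 159.8 CPM in fresh cells, 32.9, 27.4, 24 and 38.5 in DMEM/F12 and 32.5, 23.7, 20.3 and 27 in incubation medium. It fell, with log2 fold changes of -2.38 (SE 0.15, adjusted p = 7.27e-09) and -2.63 (SE 0.15, adjusted p = 3.45e-09), and the media overlapped. PDGFA fell less, with log2 fold changes of -0.59 (SE 0.11, adjusted p = 0.000344) and -0.83 (SE 0.12, adjusted p = 1.63e-05). Between the media PDGFA gave -0.24 (SE 0.12, adjusted p = 0.144), and with library totals in place of TMM scaling -0.34 (adjusted p = 0.0371). Limma, which also used CPM scaled by library totals, gave -0.34 (adjusted p = 0.0372, over all alternatives 0.0371 to 0.383).

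PDGFRA, the receptor for PDGFA and PDGFC and a common fibroblast marker, was low, at 1.39, 0.537, 0.56 and 1.96 CPM in fresh cells and 1.94, 2.32, 1.32 and 1.44 in DMEM/F12. These groups overlapped, with a log2 fold change of 0.67 (SE 0.38, adjusted p = 0.129) that became 1.06 without fresh replicate 4 (adjusted p = 0.0295, over all alternatives 0.0295 to 0.326). Every incubation medium library was at or under the floor. Set at the floor, the incubation medium level of PDGFRA was 2.91-fold below fresh cells and 4.59-fold below DMEM/F12. These values are not limits, since the counts there were 2, 2, 3 and 2. The fitted log2 fold changes were -1.89 (SE 0.51, adjusted p = 0.00393) and -2.55 (SE 0.45, adjusted p = 0.00089). Over the alternatives they ran from -2.113 to -0.9393 and from -2.695 to -1.56.

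HGF, a ligand made mainly by mesenchymal cells, was at 7.3, 6.8, 5.6 and 7.04 CPM in fresh cells, 0.728, 0.464, 0.396 and 0.24 in DMEM/F12 and 0.476, 0, 0.246 and 0.805 in incubation medium. Fresh libraries stood well above the others, with log2 fold changes of -3.82 (SE 0.41, adjusted p = 1.34e-06) and -4.07 (SE 0.43, adjusted p = 9.89e-07). Spheroid counts of HGF were 6, 4, 3 and 2 in DMEM/F12 and 4, 0, 2 and 6 in incubation medium, near the floor, so the size of these falls is uncertain. Over the alternatives they ran from -4.109 to -2.879 and from -4.638 to -3.105. Its epithelial receptor MET went up, from 74.3, 86.1, 76.1 and 81.4 CPM in fresh cells to 123, 143, 178 and 132 in DMEM/F12 and 97, 120.4, 114 and 94.4 in incubation medium. MET separated both media from fresh cells, with log2 fold changes of 0.86 (SE 0.12, adjusted p = 1.55e-05) and 0.42 (SE 0.12, adjusted p = 0.00537), and incubation medium against DMEM/F12 gave -0.43 (SE 0.12, adjusted p = 0.0136).

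Fibroblast markers moved beside these ligands. Of 11 listed, 9 had a row and 7 were tested, and their summed level was 2329.5 to 2722 CPM in fresh cells, 183 to 303 in DMEM/F12 and 101 to 163 in incubation medium. Most of the sum came from MGP (means of 1608, 35.5 and 6.82 CPM) and FBLN1 (853, 136 and 98). COL3A1 had means of 24, 0.573 and 0.358 CPM and fell in both media, COL1A1 had 31.1, 21.9 and 3.43 and fell in incubation medium, while THY1 (0.267, 22.8 and 5.12) and COL5A1 (0.234, 9.62 and 7.86) rose in both. TCF21 averaged at most 0.186 CPM in any group. The part of this marker list in the values of HGF, PDGFC, PDGFD, PDGFRA, IGFBP5 and IGFBP7 was not tested. Of the 12 smooth muscle and pericyte markers 11 had a row, 6 were tested, and ABCC9 and CSPG4 were at 0 in every library. TAGLN carried most of their sum, which was 313 to 425 CPM in fresh cells, 1086 to 1241 in DMEM/F12 and 257 to 570.3 in incubation medium. TAGLN was the 1 marker of the 6 that rose in both media, while MYLK (means of 50.5, 15.9 and 14.8 CPM), CNN1 (5.21, 0.865 and 0.845) and NOTCH3 (55.1, 27.7 and 14.3) fell in both and the other 2, ACTA2 and ACTG2, were not called; the median log2 fold changes of the 6 were -0.629 and -1.52. Leukocyte markers, 7 with a row, summed to 462 to 512, 418 to 480.4 and 506 to 605 CPM, nearly all of it CD79A, while PTPRC had means of 6.99, 2.53 and 1.2.

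**Figure D3:**
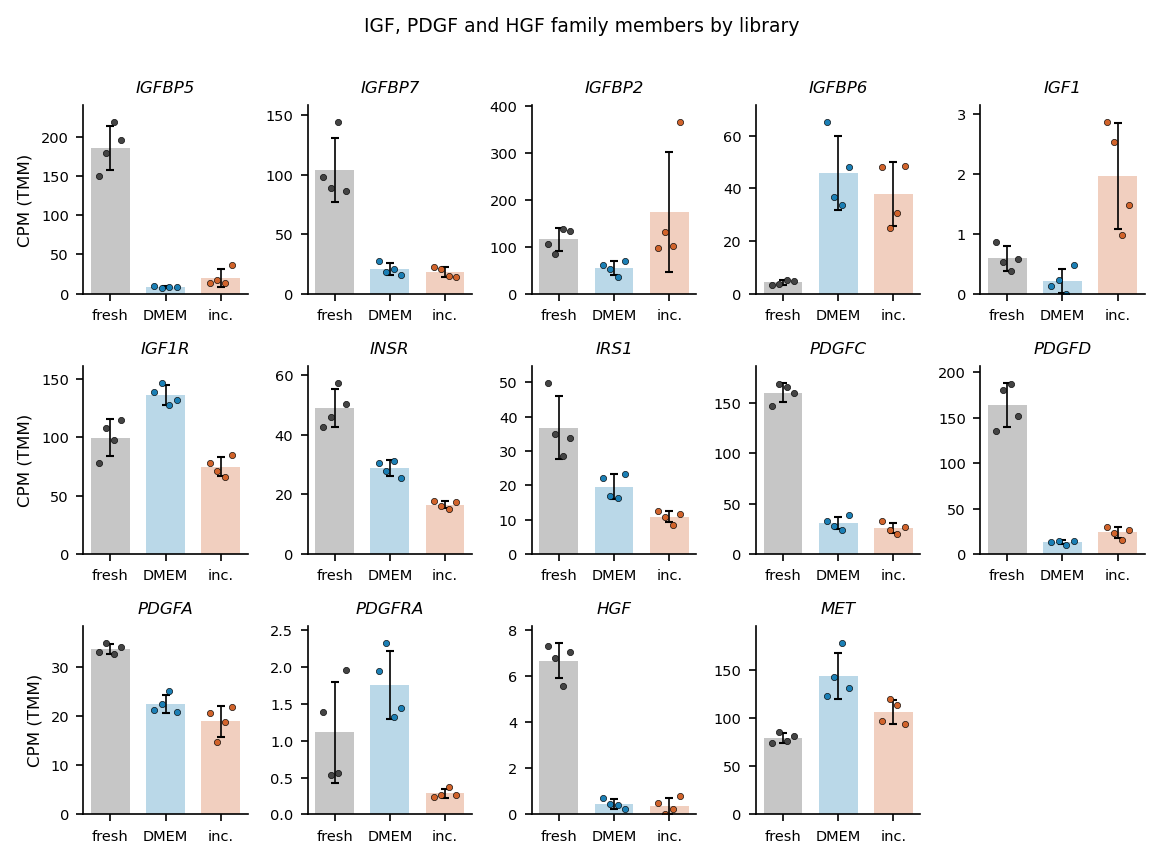
CPM after TMM scaling (y axis, linear from 0) of 14 genes of the IGF, PDGF and HGF families in the 3 groups; points are the 4 libraries, bars the means and error bars the SD. IGFBP5, IGFBP7, PDGFC, PDGFD and HGF are high in fresh cells, IGFBP6 is low there, INSR and IRS1 step down from fresh cells through DMEM/F12 to incubation medium, and 1 incubation medium library of IGFBP2 stands at 364 CPM.

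Among the 5 tested genes of the VEGF family the neuropilins gave the largest differences. NRP1, a co-receptor for VEGFA and semaphorins, was at 7.47, 5.19, 4.85 and 4.5 CPM in fresh cells, 3.64, 1.39, 1.06 and 2.52 in DMEM/F12 and 11.5, 5.6, 8.11 and 13.1 in incubation medium. All DMEM/F12 libraries were below all fresh ones (log2 fold change -1.35, SE 0.37, adjusted p = 0.00482), and all incubation medium libraries were above all DMEM/F12 ones (log2 fold change 2.14, SE 0.35, adjusted p = 0.00053). Incubation medium overlapped fresh cells and was higher by 0.80 (SE 0.33, adjusted p = 0.0398). This last call was lost without any 1 of fresh replicates 2, 3 and 4 or incubation medium replicates 1 and 4, and with thinned counts or limma, with adjusted p of 0.00576 to 0.11 over its alternatives. NRP2, the co-receptor for VEGFC, was at 1.56, 1.25, 1.49 and 0.587 CPM in fresh cells, 9.23, 7.19, 7.26 and 8.63 in DMEM/F12 and 9.64, 9.59, 11.8 and 12.2 in incubation medium. It rose without overlap in both media, by 2.69 (SE 0.24, adjusted p = 1.69e-07) and 3.11 (SE 0.23, adjusted p = 3.31e-08), and the difference between the media was 0.42 (SE 0.17, adjusted p = 0.0914).

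VEGFA, the main ligand for blood vessel growth, was at 5.91, 7.52, 6.34 and 5.67 CPM in fresh cells, 2.79, 2.78, 4.49 and 1.68 in DMEM/F12 and 4.64, 5.06, 4.79 and 11.7 in incubation medium, where replicate 4 was apart from the other 3. It was lower in DMEM/F12 than in fresh cells (log2 fold change -1.12, SE 0.34, adjusted p = 0.00925), while incubation medium and fresh cells overlapped (log2 fold change 0.03, SE 0.32, adjusted p = 0.932). Incubation medium exceeded DMEM/F12 by 1.15 (SE 0.33, adjusted p = 0.0205). That call was lost without DMEM/F12 replicates 2 (1.13, adjusted p = 0.0502) or 4 (0.96, adjusted p = 0.0618) or incubation medium replicate 4 (0.73, adjusted p = 0.0627, over all alternatives 0.00716 to 0.0627). VEGFB was at 98.1, 80.9, 86.4 and 109 CPM in fresh cells, 82.2, 82.9, 81.1 and 79 in DMEM/F12 and 90.7, 79.8, 84.4 and 93.1 in incubation medium. The groups overlapped, and the log2 fold change in DMEM/F12 was -0.20 (SE 0.09, adjusted p = 0.0648). With the replicate number as a block it was -0.19 (adjusted p = 0.0469), under the stricter filter of 10 counts on average -0.23 (adjusted p = 0.0363), and without fresh replicate 2 -0.26 (adjusted p = 0.0202, over all alternatives 0.0202 to 0.313).

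The receptors FLT1 and FLT4 were low, with FLT1 untested and FLT4 not called, at 2.78, 1.61, 0.56 and 2.15 CPM in fresh cells, 4.25, 2.78, 1.98 and 1.2 in DMEM/F12 and 2.26, 1.2, 0.614 and 2.01 in incubation medium. Among 11 endothelial markers 8 had a row and 5 were tested. Their sum was 45.9 to 61.2 CPM in fresh cells, 143 to 258 in DMEM/F12 and 98.5 to 163 in incubation medium, carried by CDH5 (means of 11.4, 108 and 42.9 CPM) and by the VEGF receptor KDR (20.9, 74 and 60.5), which both rose in both media. PECAM1 fell in both (15.1, 7.89 and 8.03 CPM), and VWF and ERG averaged at most 0.0975 CPM in any group. The part of this marker list in the VEGF family results was not tested.

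**Figure D4:**
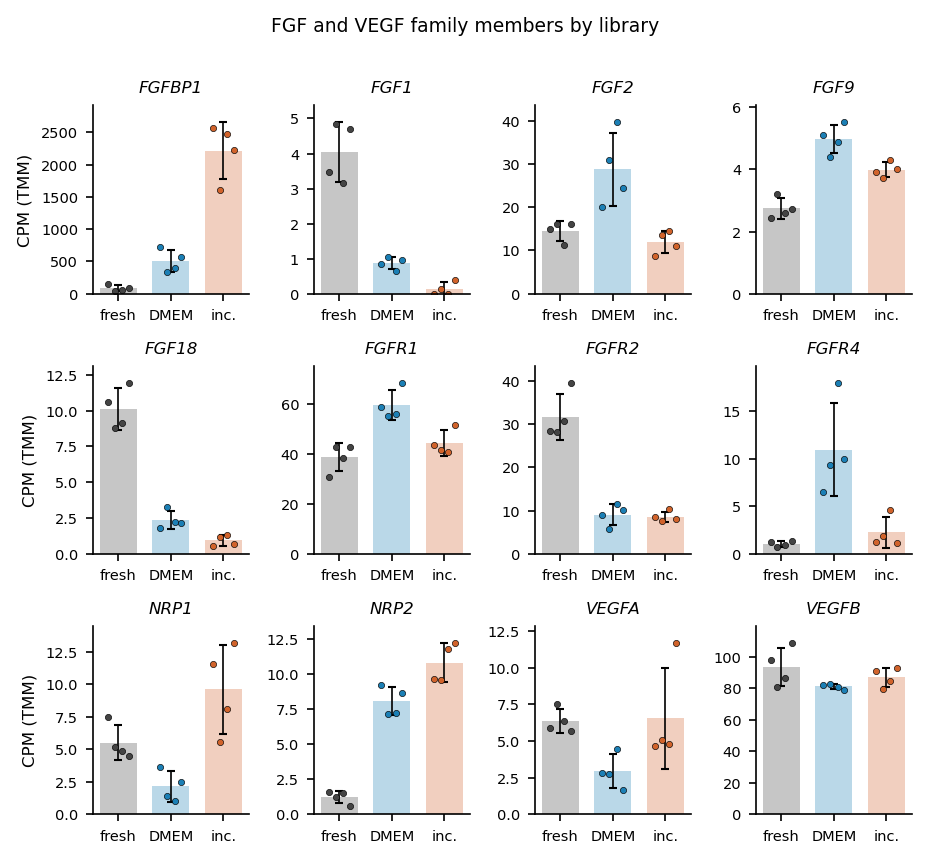
CPM after TMM scaling (y axis, linear from 0) of 12 genes of the FGF and VEGF families in the 3 groups; points are the 4 libraries, bars the means and error bars the SD. FGFBP1 climbs from at most 146 CPM in fresh cells to at least 1601 in incubation medium, FGFR4 and FGF2 are highest in DMEM/F12, and NRP1 is lowest there.

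Ephrins and their Eph receptors made up 16 of the 80 genes, and 14 were tested. Among the 7 ligands EFNA2, EFNA1 and EFNB2 fell in both media, EFNA4 rose in both, EFNB1 and EFNB3 passed against fresh cells with incubation medium alone, and EFNA5 with DMEM/F12 alone. EFNA1, EFNA2, EFNA4, EFNA5, EFNB1 and EFNB3 also passed the threshold between the media. EFNA2, a lipid-anchored ephrin, was at 54.9, 27.6, 28.9 and 28.4 CPM in fresh cells, 3.03, 2.2, 2.11 and 4.07 in DMEM/F12 and 1.55, 1.07, 1.11 and 1.48 in incubation medium. The 3 groups did not overlap, and it fell, with log2 fold changes of -3.60 (SE 0.27, adjusted p = 3.08e-08) and -4.73 (SE 0.30, adjusted p = 7.11e-09). The further difference between the media, -1.13 (SE 0.36, adjusted p = 0.034), was lost when DMEM/F12 replicate 1 or 4 or any 1 incubation medium replicate was left out, with adjusted p from 0.0502 to 0.109. EFNA1 was at 102, 111, 81.2 and 96.8 CPM in fresh cells, 61.5, 56.6, 62.1 and 61.4 in DMEM/F12 and 35.8, 42.5, 42 and 55.2 in incubation medium. Its groups also separated in that order, with log2 fold changes of -0.69 (SE 0.12, adjusted p = 0.00014), -1.15 (SE 0.12, adjusted p = 1.2e-06) and -0.46 (SE 0.12, adjusted p = 0.0136).

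EFNA4 was at 13.9, 15.9, 11.8 and 18 CPM in fresh cells, 42.1, 50.7, 56 and 48.2 in DMEM/F12 and 30.5, 28.4, 30.5 and 32.9 in incubation medium. It was highest in DMEM/F12, with log2 fold changes of 1.73 (SE 0.13, adjusted p = 2.76e-08) and 1.04 (SE 0.13, adjusted p = 4.99e-06) against fresh cells and -0.69 (SE 0.12, adjusted p = 0.000668) between the media. EFNB1, a transmembrane ephrin, was at 84.2, 114, 118 and 129 CPM in fresh cells, 92.3, 120.4, 101 and 128 in DMEM/F12 and 155, 191, 183 and 193 in incubation medium. Incubation medium alone stood high, by 0.70 (SE 0.13, adjusted p = 0.000323) against fresh cells and 0.71 (SE 0.13, adjusted p = 0.00155) against DMEM/F12. EFNB3 was low in incubation medium alone, with 4.52, 3.58, 4.11 and 4.69 CPM in fresh cells, 5.34, 3.48, 5.55 and 5.27 in DMEM/F12 and 1.07, 0.666, 1.47 and 0.805 in incubation medium. Its log2 fold changes were -2.04 (SE 0.27, adjusted p = 1.08e-05) against fresh cells and -2.26 (SE 0.26, adjusted p = 4.14e-05) against DMEM/F12. EFNB2 fell, with log2 fold changes of -1.17 (SE 0.17, adjusted p = 2.38e-05) and -1.44 (SE 0.17, adjusted p = 3.7e-06). EFNA5 was lower in DMEM/F12 than in fresh cells (log2 fold change -0.60, SE 0.15, adjusted p = 0.00232) and higher in incubation medium than in DMEM/F12 (log2 fold change 0.49, SE 0.15, adjusted p = 0.0252), a call lost without DMEM/F12 replicate 1 or 4 or incubation medium replicate 1, and with library totals or limma, with adjusted p of 0.0124 to 0.0851 over its alternatives.

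Among the 7 receptors tested, EPHA2 and EPHA6 fell in both media, and EPHA1 and EPHB4 rose in both. EPHA2 is the main EphA receptor of many epithelia and binds EFNA1. It was at 416, 303, 265 and 277 CPM in fresh cells, 64.3, 68.2, 78.2 and 65.4 in DMEM/F12 and 41, 64.2, 66.6 and 46.8 in incubation medium. All spheroid libraries were far below the fresh ones, with log2 fold changes of -2.19 (SE 0.17, adjusted p = 4.85e-08) and -2.53 (SE 0.17, adjusted p = 1.46e-08), and the media overlapped (log2 fold change -0.34, SE 0.17, adjusted p = 0.163), although limma put their difference at -0.45 (adjusted p = 0.0468). EPHA6, low throughout, was at 3.47, 9.31, 4.67 and 3.91 CPM in fresh cells, 0.243, 1.04, 0.132 and 0.36 in DMEM/F12 and 0.476, 0.533, 0.246 and 0.402 in incubation medium. It fell, with log2 fold changes of -3.51 (SE 0.47, adjusted p = 1.27e-05) and -3.64 (SE 0.49, adjusted p = 1.08e-05). The first value was -4.32 without DMEM/F12 replicate 2 (adjusted p = 6.14e-06, over all alternatives 2.38e-09 to 9.49e-05). Over the alternatives the 2 values ran from -4.319 to -2.572 and from -3.798 to -2.586.

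EPHB4, the receptor for EFNB2, rose from 24, 20.9, 21.5 and 26.2 CPM in fresh cells to 81.9, 70.1, 84.5 and 75.6 in DMEM/F12 and 65.7, 48.2, 51.7 and 67.2 in incubation medium. The groups did not overlap, with log2 fold changes of 1.75 (SE 0.12, adjusted p = 2.02e-08), 1.33 (SE 0.12, adjusted p = 3.04e-07) and, between the media, -0.42 (SE 0.11, adjusted p = 0.0144). The last call was lost without incubation medium replicate 2 (-0.34, adjusted p = 0.0503, over all alternatives 0.00182 to 0.0503). EPHA1 rose from 4.52, 4.3, 2.43 and 4.11 CPM in fresh cells to 11.9, 14.4, 11.4 and 12.7 in DMEM/F12 and 9.76, 11.9, 10.2 and 11.1 in incubation medium, by 1.71 (SE 0.18, adjusted p = 9.16e-07) and 1.48 (SE 0.18, adjusted p = 4.19e-06). EPHB1 and EPHB2 differed between the media in opposite directions. EPHB2 was at 10.6, 9.84, 8.96 and 13.1 CPM in fresh cells, 8.25, 12.8, 11.5 and 7.67 in DMEM/F12 and 18.6, 22.4, 19.2 and 21.3 in incubation medium, where it was highest, by 0.94 (SE 0.17, adjusted p = 0.000201) against fresh cells and 1.02 (SE 0.17, adjusted p = 0.00056) against DMEM/F12. EPHB1 was at 17.9, 12, 7.65 and 10.6 CPM in fresh cells, 14, 14.7, 14.3 and 13.4 in DMEM/F12 and 6.07, 3.73, 6.51 and 8.58 in incubation medium. There it was lower than in fresh cells with overlapping libraries (log2 fold change -0.95, SE 0.25, adjusted p = 0.00359). Against DMEM/F12 it was lower without overlap (log2 fold change -1.18, SE 0.24, adjusted p = 0.00288). EPHB3 rose in DMEM/F12 by 0.61 (SE 0.24, adjusted p = 0.0377) with overlapping libraries, and lost the call without fresh replicate 3 or 4 or DMEM/F12 replicate 2 or 3, and with thinned counts, with adjusted p of 0.0048 to 0.133 over its alternatives.

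**Figure D5:**
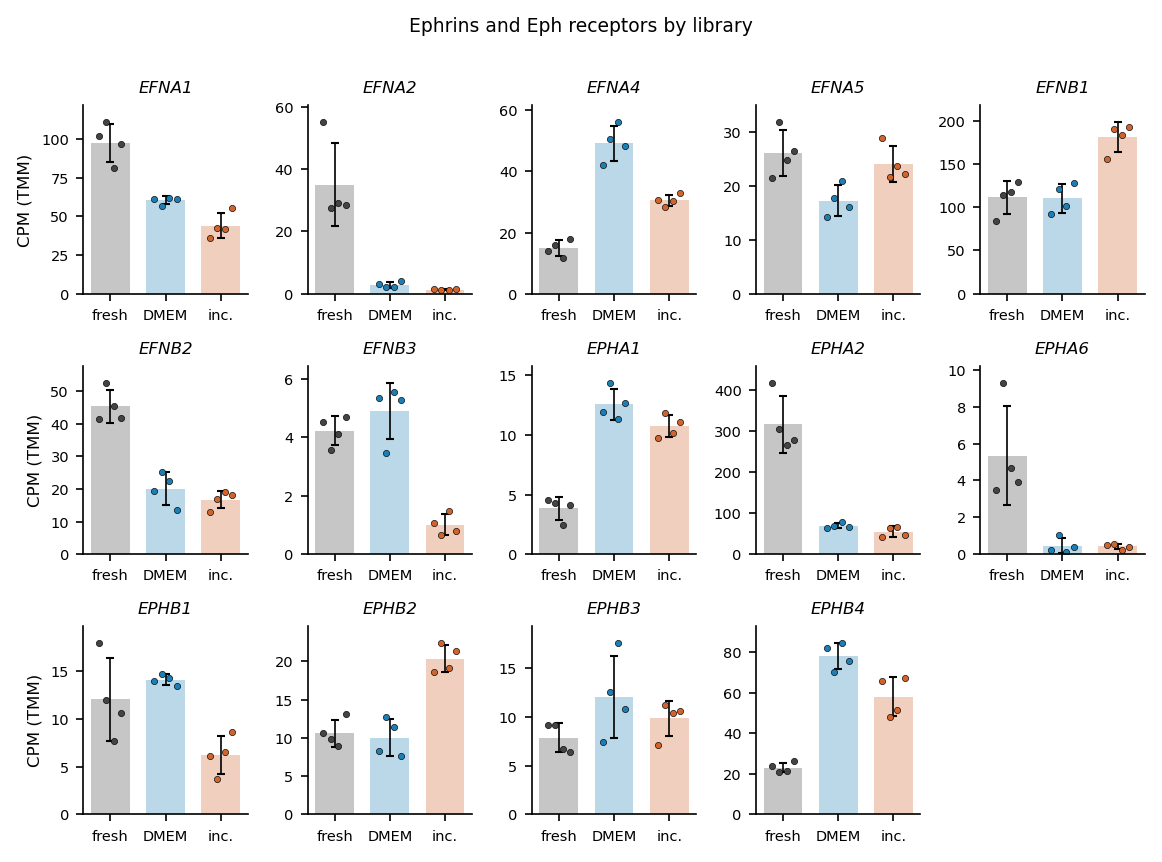
CPM after TMM scaling (y axis, linear from 0) of the 14 tested ephrins (EFN) and Eph receptors (EPH) in the 3 groups; points are the 4 libraries, bars the means and error bars the SD. EFNA2 and EPHA2 are high in fresh cells, EFNA4 and EPHB4 are low there, EFNB1 and EPHB2 are highest in incubation medium, and EFNB3 is lowest there.

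Lists of genes around these families are described by their counts and median log2 fold changes. In DMEM/F12 35.1% of all genes rose and 35.7% fell (median -0.0143), in incubation medium 35.8% moved each way (median -0.0069), and between the media 12.7% were higher and 12.3% lower in incubation medium (median -0.00334). Of 30 listed genes that release ligands, help them bind or inhibit such steps, 15 were tested. In DMEM/F12 12 rose and 2 fell (median 0.828), and 10 rose and 1 fell in incubation medium (median 0.857). Between the media 2 were higher and 5 lower in incubation medium (median -0.22). ADAM17, the protease that sheds HBEGF, TGFA, AREG and EREG, had means of 21.9, 53.5 and 47.5 CPM in fresh cells, DMEM/F12 and incubation medium, and rose by 1.29 (SE 0.11, adjusted p = 8.98e-08) and 1.11 (SE 0.11, adjusted p = 3.76e-07). RHBDF2, which carries ADAM17 to the surface, rose with means of 15.6, 27.6 and 28.9 CPM. ST14 and PLAU, proteases that can activate HGF, had means of 88.7, 352 and 259 and of 7.6, 193 and 183 CPM, and PLAU rose by 4.64 (SE 0.28, adjusted p = 4.76e-09) and 4.57 (SE 0.28, adjusted p = 5.37e-09). Their counterpart SPINT1, an inhibitor of HGF activation, had 148, 452 and 370.0 CPM and also rose in both. SPINT2, a related inhibitor, had 1973, 1354 and 1269 CPM and fell in both, with log2 fold changes of -0.54 (SE 0.12, adjusted p = 0.00121) and -0.64 (SE 0.12, adjusted p = 0.000331). STC2 and STC1, inhibitors of the protease that cleaves IGF binding proteins, had means of 7.55, 6.97 and 27.8 and of 4.46, 0.46 and 7.66 CPM, and both were higher in incubation medium than in DMEM/F12, by 1.99 (SE 0.26, adjusted p = 9.51e-05) and 4.00 (SE 0.77, adjusted p = 0.00173).

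Of 20 feedback inhibitors and targets of receptor tyrosine kinases 17 were tested, with 5 up and 10 down in DMEM/F12 (median -0.78) and 3 up and 9 down in incubation medium (median -0.70); between the media 2 were higher and 6 lower in incubation medium (median -0.18). Over all genes the shares up and down were 35.1% and 35.7%, 35.8% each way, and 12.7% and 12.3%. LRIG1, a negative regulator of EGF family receptors, had means of 94, 16.1 and 28.3 CPM and fell, with log2 fold changes of -2.54 (SE 0.12, adjusted p = 5.5e-10) and -1.73 (SE 0.12, adjusted p = 1.11e-08). SPRY1, a Sprouty inhibitor of FGF signalling, had 127, 22 and 31 CPM and fell, with log2 fold changes of -2.52 (SE 0.13, adjusted p = 1.42e-09) and -2.03 (SE 0.13, adjusted p = 7.58e-09). Its relative SPRY2 had 23.9, 46.6 and 17.6 CPM, rose in DMEM/F12 by 0.96 (SE 0.22, adjusted p = 0.00135) and was lower in incubation medium than in DMEM/F12 (log2 fold change -1.40, SE 0.22, adjusted p = 0.000441). The ERK phosphatases split: DUSP5 (1075, 234 and 207 CPM) and DUSP6 (92.2, 48 and 33.1) fell in both media, and DUSP4 (2.36, 36.9 and 32.1) rose in both. Of the related ERK target genes ETV4 rose in both (1.2, 20.8 and 10 CPM) and ETV5 fell in both (6.51, 2.41 and 0.792).

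In the adaptor and ERK cascade list, 20 of 21 genes were tested, with 11 higher and 3 lower in DMEM/F12 (median 0.35), 10 higher and 7 lower in incubation medium (median 0.26) and 1 higher and 3 lower between the media (median -0.08). These counts and those of the next lists stand beside 35.1% up and 35.7% down over all genes in DMEM/F12, 35.8% each way in incubation medium, and 12.7% and 12.3% between the media. The kinases MAP2K1 (35.5, 77 and 65.1 CPM) and MAP2K2 (70.9, 153 and 186) rose in both media, and the adaptor GAB2 (16.7, 12 and 3.57) fell in both, with a log2 fold change of -2.21 (SE 0.18, adjusted p = 6.12e-08) in incubation medium. In the PI3K and AKT list, 19 of 22 were tested, with 9 higher and 3 lower in DMEM/F12 (median 0.14), 8 and 8 in incubation medium (median -0.235) and 2 and 7 between the media (median -0.255). PIK3R1, the regulatory subunit that joins PI3K to receptors and adaptors, had means of 193, 29.9 and 50 CPM and fell, with log2 fold changes of -2.69 (SE 0.18, adjusted p = 1.21e-08) and -1.95 (SE 0.17, adjusted p = 1.85e-07). Of 28 further receptors and ligands, 15 were tested, with 6 up and 6 down in DMEM/F12 (median 0.125), 5 up and 8 down in incubation medium (median -0.62) and none up and 3 down between the media (median -0.29). The receptor AXL rose in both media (means of 6.04, 44.9 and 21.9 CPM) while its ligand GAS6 fell in both (683, 145 and 141), as did PROS1, a ligand of the related receptors TYRO3 and MERTK (372, 57.4 and 50.2). KITLG, the ligand of KIT, fell with means of 45.8, 7.3 and 7.85 CPM, and the neurotrophin receptor NTRK2 with 25.7, 0.837 and 1.69.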

How the data were processed

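The authors deposited, per the file headers and values, an expected count and a CPM per gene and library for 12 libraries of 3′ mRNA sequencing. In each library 19.1 to 20.5% of nonzero counts were not whole, so reads had been shared between features. The deposited CPM equalled the count scaled by the library total to within 5e-06. Per the submitters' processing notes, fastp 0.24.0, STAR 2.7.11, SAMtools 1.22.1 and featureCounts of Subread 2.1.1 were used, with no role or order given; the genome build, strand setting and any use of molecular identifiers are not given in the sources used here. Per the labels' protocols, poly(A) RNA was captured by oligo-dT, copied to cDNA, tagmented and amplified. Floors cover counting error only.

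Expected counts were rounded to whole numbers, and the 92 rows that were not genes, at most 0.000614% of a library, were left out. All 12 libraries entered 1 fit in edgeR 4.0.16 under R 4.3.3, with TMM scaling, the filter filterByExpr applied by group and quasi-likelihood F-tests, and p-values were adjusted by Benjamini-Hochberg over 14070 genes. Log2 fold changes are those of the quasi-likelihood fit at its default prior count. A prior count of 2 entered only the log2 CPM used to correlate libraries. The SE of a log2 fold change is its size divided by the square root of F. A gene was called at an adjusted p under 0.05. The biological coefficient of variation was 0.146. In simulated data for DMEM/F12 against fresh cells with 200 of 14070 genes changed, 81% of 2-fold and 98% of 4-fold changes were recovered, with 8 false calls. In the real comparison 70.7% of genes were called, so these rates check the code and do not carry over to the results. Pairs of libraries within each group differed by more than sampling noise, so none was a plain repeat of another and all 12 were counted. That check cannot tell whether they came from separate animals or cultures.

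Same-numbered libraries deviated together from their group means, with correlations across genes of 0.196 to 0.516 in every pair against -0.318 to 0.0233 for other pairs. Deviations sum to 0 within a group, so positive values in same-numbered pairs lower those of the other pairs. The numbers may therefore pair the libraries, which is a hint from the data, since the labels do not say what a number marks. The unblocked fit is the main one, and its SEs, p-values and shares over all genes take no account of such pairing. Alternatives were library totals, RLE factors, DESeq2 1.42.0, no filter, a mean of at least 10 counts, only the groups compared, the replicate block, thinned counts, limma 3.58.1 on log2 of the deposited CPM plus 0.5, each library left out, and, added after seeing the data, only genes with whole counts.

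The genes and lists were chosen with earlier results of these data known. Named with values were the 12 largest rises and falls per comparison among called genes without overlap and with a mean of at least 5 CPM in 1 group, and NRP1, EGFR, ERBB2, ERBB3, FGFR1, FGFR2, IGF1R, INSR, MET, VEGFA, IGF2 and PDGFRA. Other genes named with values, such as AREG, BTC, FGF1, FGF9, FGF14, FGF21, IGF1, PDGFA, VEGFB, EFNB2 and EFNB3, and the examples from the pathway and marker lists were picked after their values were seen. The gene identifiers matched 0 entries of the gene tables at hand, so symbols come from the deposited table.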

Additional observations from a re-analysis of the deposited data

Results flagged for a closer look

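Within each group of 4 libraries, the highest and lowest values were set against the rest. In 9 of 168 groups 1 library stood apart, and chance alone flags about 1 in 20; 3 of the 9 were incubation medium replicate 4. In that library IGFBP2 was at 363.9 CPM (others 97.03 to 131.6), IGFBP5 at 37.01 (others 12.98 to 17.05) and VEGFA at 11.67 (others 4.643 to 5.063). In incubation medium replicate 1, NRG4 was at 3.215 CPM (others 1.341 to 1.597). In fresh cells, EFNA2 was at 54.89 CPM in replicate 1 (others 27.56 to 28.92) and BTC at 2.239 in replicate 3 (others 1.042 to 1.174). In DMEM/F12 the library apart was the low one: EFNA1 at 56.57 CPM in replicate 2 (others 61.36 to 62.06), EFNB3 at 3.478 in replicate 2 (others 5.273 to 5.546) and FGF21 at 2.428 in replicate 1 (others 3.13 to 3.236).

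For 2 genes the calls against fresh cells had opposite signs in the media. Genes were picked only if the media also differed at an adjusted p under 0.05, so the p-values below add no separate test. Incubation medium against DMEM/F12 gave 2.14 on the log2 scale for NRP1 (adjusted p = 0.00053 in edgeR), with all incubation medium libraries above all DMEM/F12 libraries. For IGF1R it gave -0.862 (adjusted p = 0.000118), with all below. The NRP1 call in incubation medium against fresh cells (adjusted p = 0.0398 in edgeR) was lost under 7 of 18 alternatives.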

How the results depend on the processing

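Of 168 gene tests, 143 kept their call under every alternative run, as did 95 of the 109 that were called, and 0 reversed. The replicate block changed the calls of VEGFB in DMEM/F12 (-0.19, adjusted p = 0.0469) and of AREG (-0.53, adjusted p = 0.0364) and FGFR4 (1.03, adjusted p = 0.0225) in incubation medium, given beside those results, and no other call of these genes. Between the media the block called 2329 of all 14070 genes higher and 2281 lower, against 1791 and 1729 without it. The genes described here stayed at 9 higher and 18 lower, so their distance from all genes was smaller under the block. Limma, run on CPM scaled by library totals and not by TMM, called 1179 genes of all tested higher in incubation medium than in DMEM/F12, against 1791. It called 2402 lower, against 1729, and edgeR with library totals gave 1240 higher and 2469 lower. With only genes of whole counts, where 36 of these genes and 5923 in all could be tested, the genes described numbered 10 higher and 19 at 2-fold or more in DMEM/F12 against fresh cells, 15 lower in incubation medium against fresh cells, and 11 lower and 9 at 2-fold or more between the media. All genes then gave 2105 higher and 2074 lower in DMEM/F12, 2117 and 2125 in incubation medium, and 665 and 681 between the media.

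Leaving out 1 library at a time, these genes gave 17 to 18 higher, 23 to 26 lower and 28 to 31 at 2-fold or more in DMEM/F12, 14 to 15, 24 to 25 and 28 to 31 in incubation medium, and 8 to 10, 16 to 17 and 11 to 16 between the media. All genes gave 4777 to 4947 higher and 4833 to 5001 lower, 4901 to 5043 and 4906 to 5172, and 1447 to 1697 and 1348 to 1652. The cause of these differences was not tested beyond the fewer genes or libraries in each fit. Depth limits the low genes: FGF1 without incubation medium replicate 4 moved from -4.81 to -6.08 against fresh cells and from -2.63 to -3.93 against DMEM/F12, where most counts were at or near 0. Other alternatives made these differences smaller. The ranges were -6.083 to -2.857 against fresh cells and -3.927 to -1.202 against DMEM/F12.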
